A study of Mus musculus with 17 samples.

Results

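The levels of 10 imprinted genes were followed across all 17 islet libraries. These were *Meg3*, *Rian*, *Mirg*, *Dlk1*, *H19*, *Igf2*, *Cdkn1c*, *Peg3*, *Plagl1* and *Grb10*, chosen by name, out of 78239 gene identifiers in the first table of expected counts and 73212 in the second. All 10 were found in both tables by matching the Ensembl identifiers to symbols. Of them, 8 passed the filter on low counts and were tested in each table, whereas *Dlk1* and *H19* did not pass.

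Imprinted genes are transcribed mainly from the copy inherited from one parent, because the copies carry different DNA methylation at control regions. Several of them act on growth: paternally expressed *Igf2* is a growth factor, while maternally expressed *Cdkn1c* and *Grb10* restrain the cell cycle and insulin receptor signalling. In β cells the maternal RNAs of the *Dlk1* to *Dio3* domain, to which *Meg3*, *Rian* and *Mirg* belong, have been studied in relation to diabetes. Bulk counts do not tell the parental copies apart, so imprinting itself was not measured.

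The first table held isolated islets of male wildtype and homozygous *Pax4* R192H littermates on a C57BL6/N background, where *Pax4* is an islet transcription factor and the knock-in carries the mouse counterpart of a human diabetes-associated variant. Both genotypes were studied at 12 weeks of age on standard chow (SCD) and at 16 weeks after 4 weeks of high-fat feeding (HFD), with 3 libraries in each of the 4 groups. Age and diet therefore changed together. The second table held 3 libraries of *Pax4* βiKO islets and 2 of controls, all from male mice of 20 weeks after 8 weeks of HFD. Both carried *Pax4* floxed/floxed alleles and received tamoxifen at 7 to 9 weeks, and only the βiKO mice carried *Pdx1*-CreERT2, whose promoter drives a tamoxifen-dependent recombinase in β cells and other cells that express *Pdx1*, so that Cre and the loss of *Pax4* cannot be told apart. The libraries were labelled as biological replicates. Whether islets of several mice were pooled is not given in the sources used here, and p-values measure the spread between these libraries.

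Library totals ranged from 24268157 to 42679645 counts in the first table, and the second held 28618835 to 31887537. The 2 features with the most counts in each library of the first table, for which the reference gave no symbol, took 36.2% to 53.3% of its counts, and the same features took 5.40% to 6.49% in the second. The row of *Pax4* itself was listed at 0 in all 17 libraries, wildtype included, so it gave no check of the genotypes. All 10 β cell markers passed the filter in both tables, and *Ins2* lay between 14522 and 46040 CPM in the first. CPM, the count of a gene scaled to the library size after TMM normalization, was made separately in each table, so levels were not compared between tables.

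The *Dlk1* to *Dio3* domain lies on chromosome 12 of mm10, where *Dlk1* (109452823 to 109463336), *Meg3* (109541001 to 109571726), *Rian* (109603940 to 109661716) and *Mirg* (109729764 to 109749460) are all on the plus strand. *H19* (142575529 to 142578143), *Igf2* (142650766 to 142666816), *Cdkn1c* (143458339 to 143461050) and *Peg3* (6703892 to 6730431) lie on the minus strand of chromosome 7. *Plagl1* is on the plus strand of chromosome 10 (13060504 to 13131694) and *Grb10* on the minus strand of chromosome 11 (11930508 to 12038683). In the reference annotation *Meg3*, *Rian*, *Mirg* and *H19* are noncoding and the other members code for proteins.

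*Meg3*, *Rian* and *Mirg* are also host transcripts of microRNAs. RefSeq places 35 mature miRNAs on the same strand within them, of which 3 lie within *Meg3*, 6 within *Rian* and 26 within *Mirg*, and places 2 each within *H19* and *Igf2*. These 39 mature sequences have 38 different seeds, the bases 2 to 8 that pair with targets. The only pair with a common seed is miR-453 and miR-496a-5p, both in *Mirg*. Shown here are 1 product each of *Meg3*, *Rian*, *H19* and *Igf2*, and 4 of *Mirg*, with the pair of shared seed included, and capitals mark the seed.
miR-770-5p: aGCACCACgugucugggccacg
miR-370-3p: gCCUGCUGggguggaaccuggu
miR-453: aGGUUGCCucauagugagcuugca
miR-496a-5p: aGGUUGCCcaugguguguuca
miR-377-3p: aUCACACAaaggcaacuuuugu
miR-410-3p: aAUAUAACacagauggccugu
miR-675-5p: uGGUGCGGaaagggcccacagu
miR-483-3p: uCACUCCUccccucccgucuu
Mature miRNAs were not measured by these total RNA libraries. In the first table the 19 rows of miRNA genes in *Meg3*, *Rian* and *Mirg* were all listed at 0, so the values that follow are those of the host transcripts.

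Start regions are shown for *Meg3*, *Peg3* and *Plagl1*, the 3 members that were lower without overlap in βiKO islets, where 32.6% of all genes did not overlap. The first RefSeq start of *Meg3* is shown whole, as the 250 bases before it and the 50 after it at chr12:109540746-109541045 on the plus strand of GRCm38.p6. For *Peg3* (chr7:6730420-6730669, minus strand) and *Plagl1* (chr10:13090582-13090831, plus strand), which code for proteins, only the 250 bases before the start are shown. Capitals mark the letters TGCCGC on either strand, the methylated form of which is bound by ZFP57, a protein that keeps the methylation of imprinted control regions.
Meg3 start: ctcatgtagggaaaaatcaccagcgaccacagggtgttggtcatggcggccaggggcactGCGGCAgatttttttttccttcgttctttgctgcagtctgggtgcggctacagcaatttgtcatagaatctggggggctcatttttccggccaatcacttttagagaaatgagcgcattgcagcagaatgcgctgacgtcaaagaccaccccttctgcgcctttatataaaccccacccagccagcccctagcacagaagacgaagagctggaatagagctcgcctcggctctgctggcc
Peg3 upstream: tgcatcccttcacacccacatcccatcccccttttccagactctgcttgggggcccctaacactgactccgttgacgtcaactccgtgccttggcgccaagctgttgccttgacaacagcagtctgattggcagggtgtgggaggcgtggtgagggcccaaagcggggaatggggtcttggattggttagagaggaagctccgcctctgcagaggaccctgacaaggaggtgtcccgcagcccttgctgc
Plagl1 upstream: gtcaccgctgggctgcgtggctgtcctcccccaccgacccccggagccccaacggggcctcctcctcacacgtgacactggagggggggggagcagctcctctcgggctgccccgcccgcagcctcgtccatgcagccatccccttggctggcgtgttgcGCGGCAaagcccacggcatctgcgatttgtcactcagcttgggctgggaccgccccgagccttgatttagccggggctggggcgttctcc
The motif was found in 4 of the 13 start windows of 300 bases that 8 members had, and 11.6% of all 32851 windows held it. The motif contains a CG, a C followed by a G. Member windows held between 0 and 45 CG, against a median of 7 over all windows. Some members had several windows, and whether the motif was more frequent at members was not tested. The motif appeared once in the *Meg3* window and once upstream of *Plagl1*, and these letters are not in the *Peg3* stretch shown. The 50 bases after the *Peg3* start were part of the counted window and are not shown. The stretch therefore does not tell whether the whole *Peg3* window held the motif.

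The members spanned a wide range of levels in islets. Per kilobase of exon, the median over the 12 libraries of the first table was 76.2 CPM for *Peg3*, a zinc finger protein expressed from the paternal copy. *Rian* followed at 25.0 CPM per kb, *Meg3* at 6.48, *Mirg* at 4.25 and *Grb10* at 3.60. *Cdkn1c* (0.470), *Plagl1* (0.127) and *Igf2* (0.102 CPM per kb) were far lower. The ranges of *Peg3* and *Rian* over the libraries overlapped with no other member. *Meg3*, *Mirg* and *Grb10* overlapped with each other, and so did *Cdkn1c*, *Plagl1* and *Igf2*. With the longest transcript as length instead of all exons, *Meg3* (8.06) and *Mirg* (8.11 CPM per kb) changed places. In the second table the order of the medians was the same, from 106.1 CPM per kb for *Peg3* to 0.150 for *Igf2*.

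*Dlk1* and *H19* were at the limit of detection. *Dlk1*, a paternally expressed membrane protein related to Notch ligands, had at most 7 counts in any library of the first table and at most 9 in the second. *H19*, the maternal RNA next to *Igf2*, had at most 9 and at most 2 counts. A floor of 3 counts corresponds to between 0.0724 and 0.126 CPM in the first table and covers counting error only. Most libraries were near or under this floor, and no fold was calculated for either gene.

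**Figure D1:**
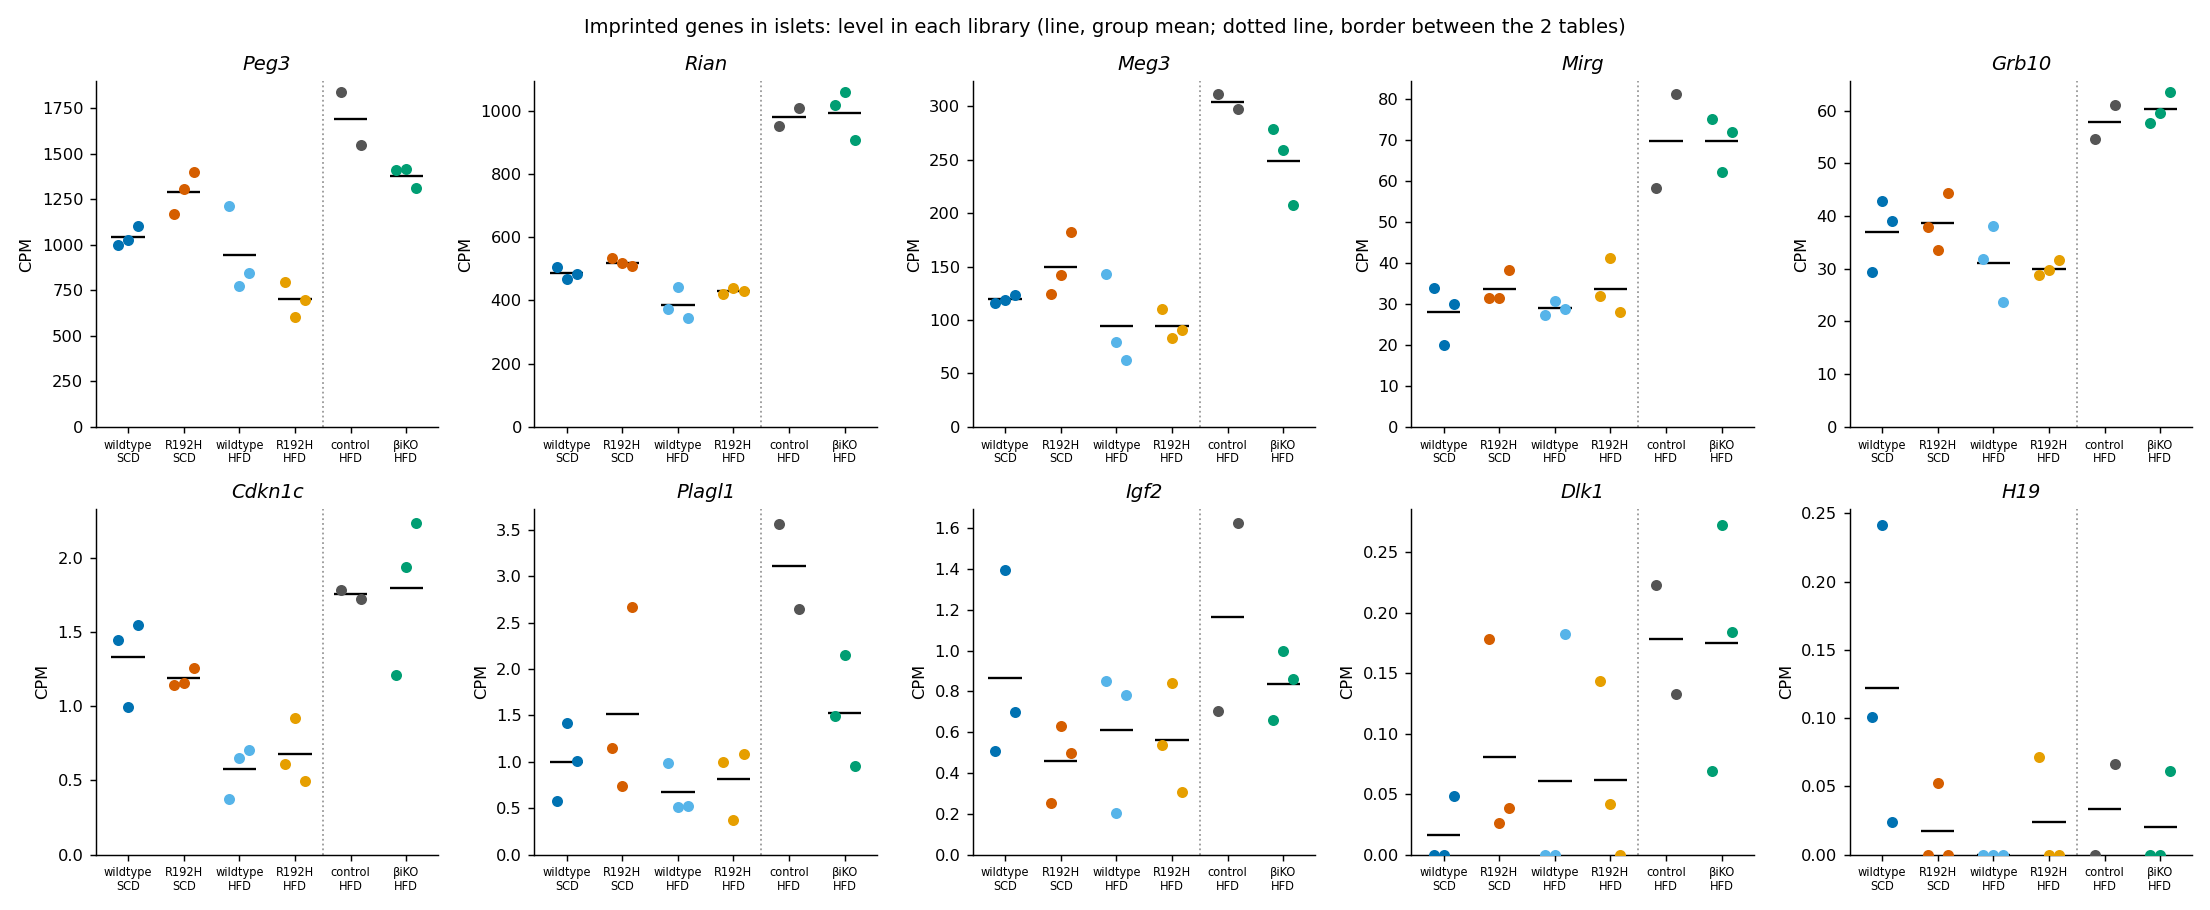
Level of each of the 10 imprinted genes in each library (points; y axis, CPM, linear from 0) with the group mean (line), for 3 libraries a group left of the dotted line and for 2 controls and 3 βiKO libraries right of it. The 2 sides were normalized separately and their heights cannot be compared. *Peg3* sits between 606 and 798 CPM in HFD-fed R192H islets and between 1169 and 1397 CPM in SCD-fed ones.

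*Peg3* was the member with the clearest difference, and it was lower in *Pax4* R192H islets on HFD than on SCD. In SCD-fed R192H islets its level was 1169, 1306 and 1397 CPM, and in HFD-fed R192H islets it was 798, 606 and 696 CPM. The lowest SCD library stood above the highest HFD library. Group means were 1291 ± 115 and 699.9 ± 96.0 CPM (SD, n = 3 each), and *Peg3* fell by 45.8% (log2 fold change -0.88, SE 0.18, 95% interval -1.27 to -0.50, adjusted p = 0.00529 in edgeR's quasi-likelihood test). It was the only one of the 8 members tested that passed the threshold in this comparison, set at an adjusted p below 0.05 with a log2 fold change beyond 0.5 either way. Of all genes 15.7% were called there, 5.91% as lower and 9.75% as higher on HFD, so that 1 member of 8 is near the background.

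In wildtype islets *Peg3* did not show such a separation. Its level was 1001, 1028 and 1105 CPM on SCD and 1215, 771 and 845 CPM on HFD. One HFD library was thus above all SCD libraries and the other HFD libraries were below them, and the log2 fold change was -0.15 (SE 0.18, adjusted p = 0.734). Leaving out the high library, replicate 1, gave -0.37 (adjusted p = 0.232). The interaction, which compares the diet difference between the genotypes, was -0.74 for *Peg3* (SE 0.25, adjusted p = 0.280), and it did not pass.

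Between the genotypes *Peg3* was higher in R192H islets on SCD, but the test was not passed (log2 fold change 0.31, SE 0.18, adjusted p = 1). The SCD groups did not overlap, as for 7.83% of all genes. Summed immune markers did not overlap there either (85.5 to 143.3 CPM in wildtype and 61.8 to 62.4 CPM in R192H islets). The same held for their mean log2 CPM (2.29 to 2.88 and 1.51 to 1.69), and their part was not tested. On HFD *Peg3* was lower in R192H islets by -0.43 on the log2 scale (SE 0.18, adjusted p = 0.242), and the wildtype replicate 2 (771 CPM) lay below R192H replicate 1 (798 CPM). Without wildtype replicate 1 this difference was -0.21 (adjusted p = 0.661).

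*Peg3* values in the second table were 1838 and 1549 CPM in controls and 1410.5, 1414 and 1314 CPM in βiKO islets. Every βiKO library was below both controls, and 32.6% of all genes were without overlap in this comparison of 2 against 3 libraries. The log2 fold change of -0.30 (SE 0.12, adjusted p = 0.350) did not pass, and it was -0.17 without control replicate 1, the higher one. The summed stromal markers were 288.9 to 303.5 CPM in controls and 305.4 to 426.5 CPM in βiKO islets, while their mean log2 CPM overlapped. Summed endothelial markers (358.9 to 363.7 CPM in controls and 382.1 to 449.8 CPM in βiKO islets) did not overlap either, nor did the mean log2 CPM of β cell markers (10.41 to 10.53 and 10.18 to 10.24) and of α cell markers (6.98 to 7.11 and 7.26 to 7.38), while the summed β cell markers overlapped. With the stromal and endothelial covariate the *Peg3* difference was -0.28, and the part of the β and α cell markers was not tested.

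Cell type markers differed between the groups in which *Peg3* differed. The summed level of 25 acinar genes, which mark the exocrine tissue around islets, was between 13398 and 20152 CPM in SCD-fed and between 38333 and 104758 CPM in HFD-fed R192H islets, and between 13262 and 25820 CPM in wildtype islets of either diet. The mean log2 CPM of 12 stromal markers was 2.14 to 3.20 in SCD-fed and 1.62 to 1.90 in HFD-fed R192H islets, without overlap, while their summed level overlapped (151.3 to 254.9 and 149.2 to 213.2 CPM). Without overlap between these groups were also the summed levels of 10 duct markers (274.5 to 286.1 CPM on SCD and 427.2 to 530.8 CPM on HFD) and of 10 β cell markers (50619 to 52741 and 99293 to 110484 CPM), and the mean log2 CPM of 6 α cell markers (5.78 to 6.07 and 6.19 to 6.57). The other measure of each list overlapped, with a mean log2 CPM of 2.45 to 3.15 and 2.75 to 3.23 for duct and 9.34 to 9.66 and 9.48 to 9.70 for β cell markers, and a summed level of 6284 to 8381 and 5712 to 7834 CPM for α cell markers. The part of these markers in the *Peg3* difference was not tested. With the acinar markers as a covariate the *Peg3* difference was -1.15 on the log2 scale (SE 0.29), of the same sign and larger, and no longer passed (adjusted p = 0.0984). With the stromal and endothelial markers it was -0.88 (adjusted p = 0.00747). The share of the 2 largest features was 37.6% to 46.3% in SCD-fed and 49.2% to 53.3% in HFD-fed R192H islets, and without those features the *Peg3* difference was -0.89 (adjusted p = 0.00519). In whole islets, fewer cells of a type and less RNA per cell cannot be told apart.

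*Peg3* shares its domain with *Usp29*, which starts next to it on the opposite strand, and with *Zim1*, a zinc finger gene downstream. *Usp29*, chosen after its values were seen, was at 25.2, 23.0 and 36.7 CPM in SCD-fed and at 17.8, 19.8 and 20.3 CPM in HFD-fed R192H islets. *Zim1* was at 18.4, 14.5 and 57.8 CPM and at 9.41, 5.50 and 8.05 CPM. Both were lower in all HFD libraries and both were called, *Usp29* with a log2 fold change of -0.55 (adjusted p = 0.0437) and *Zim1* with -1.97 (adjusted p = 0.0453). A single SCD-fed library, replicate 3, held the highest value of *Peg3*, *Usp29* and *Zim1* alike. Without it the difference was -0.82 for *Peg3* (adjusted p = 0.0198), -0.32 for *Usp29* (0.199) and -1.10 for *Zim1* (0.257). *Zim1* also lost its call without any of the HFD-fed R192H libraries, and *Usp29* without each library but SCD replicate 2. Both calls were also lost with the stromal and endothelial covariate (*Usp29* -0.45, adjusted p = 0.0669, and *Zim1* -1.38, adjusted p = 0.0988) and with the acinar covariate, where the differences were not smaller (*Usp29* -0.58, adjusted p = 0.349, and *Zim1* -2.52, adjusted p = 0.266).

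**Figure D2:**
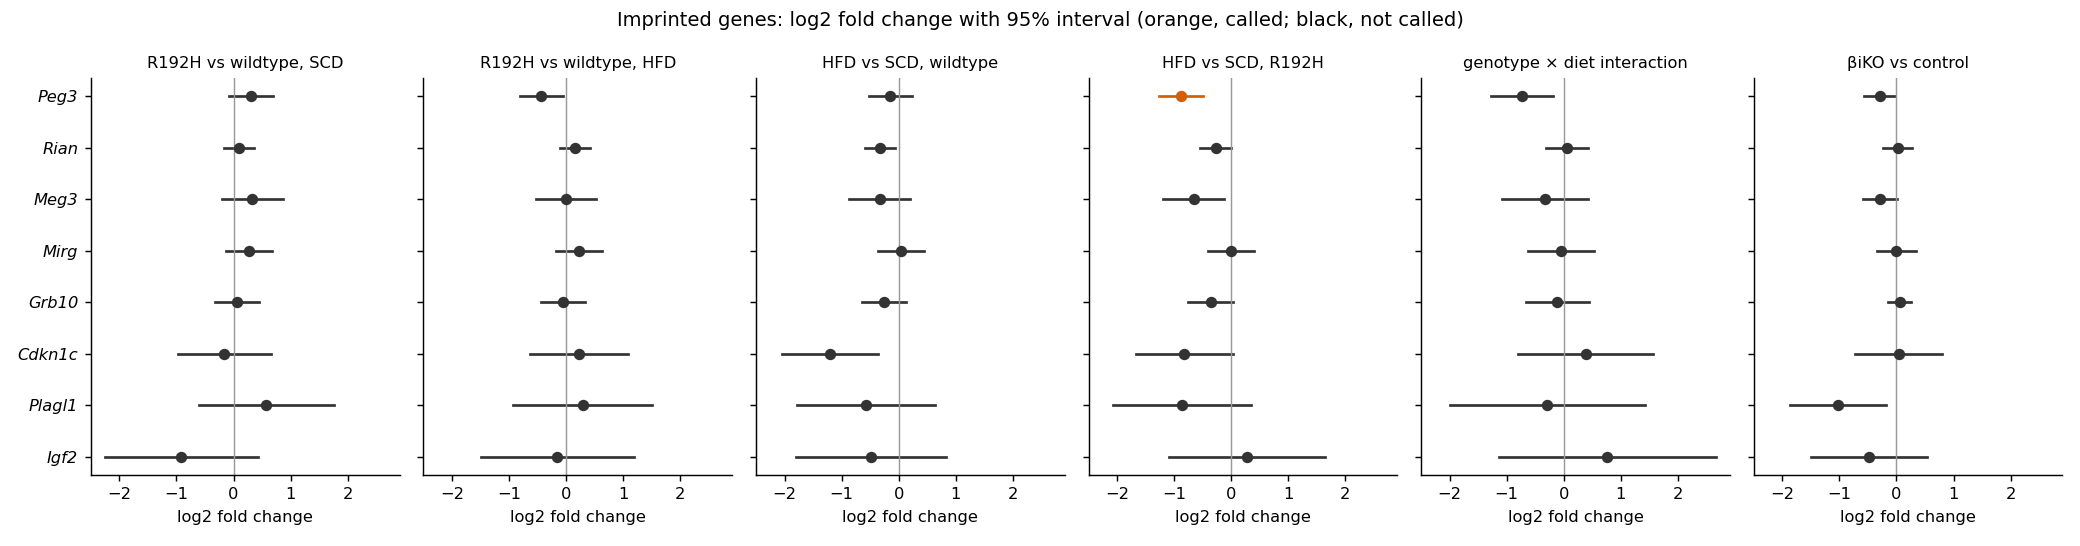
Log2 fold change (points) with its 95% interval (bars) for the 8 tested members in 6 comparisons, on one x axis in log2 units. The orange interval of *Peg3* in the diet comparison of R192H islets (-1.27 to -0.50) belongs to the only called value.

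The maternal RNAs *Meg3*, *Rian* and *Mirg* are noncoding transcripts read in the same direction, and whether their differences were unequal was not tested. *Meg3* was at 124.3, 142.5 and 182.3 CPM in SCD-fed R192H islets and at 110.7, 82.9 and 90.7 CPM in HFD-fed ones. *Rian* was at 533.2, 518.3 and 507.6 CPM and at 418.7, 439.5 and 430.1 CPM in the same groups. For both the groups did not overlap, with log2 fold changes of -0.66 for *Meg3* (SE 0.25, adjusted p = 0.0842) and -0.28 for *Rian* (SE 0.12, adjusted p = 0.140), and neither passed. *Mirg*, the host of most of the miRNAs, was at 31.4, 31.4 and 38.3 CPM and at 32.0, 41.0 and 27.9 CPM, and its log2 fold change was -0.0016 (95% interval -0.41 to 0.40).

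The call for *Meg3* depended on the test. Its log2 fold change lay between -1.12 and -0.49 over 15 alternatives, and it was called by DESeq2 (adjusted p = 0.0319), in a model of only the compared groups (0.0198) and without the filter on low counts (0.00124). Together with *Peg3*, *Meg3*, *Rian*, *Cdkn1c* and *Grb10* made 5 members that were lower without overlap in HFD-fed R192H islets, in a comparison in which 41.8% of all genes did not overlap.

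In wildtype islets *Meg3* was at 115.9, 118.5 and 123.4 CPM on SCD and at 143.3, 79.1 and 62.2 CPM on HFD. Replicate 1 on HFD, the library that was also highest for *Peg3*, stood above all SCD libraries, and the other HFD libraries stood below them. The log2 fold change was -0.33 (SE 0.25, adjusted p = 0.551), and leaving out replicate 1 gave -0.75 (adjusted p = 0.0805) and leaving out replicate 3 gave -0.10 (adjusted p = 0.913). *Rian* was at 505.1, 468.0 and 484.3 CPM on SCD and at 372.9, 443.6 and 343.5 CPM on HFD. It was lower without overlap (log2 fold change -0.33, SE 0.12), but did not pass (adjusted p = 0.226). *Mirg* lay between 19.9 and 33.8 CPM on SCD and between 27.2 and 30.6 CPM on HFD (log2 fold change 0.05, SE 0.19).

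None of these maternal RNAs passed in the genotype comparisons. On SCD, *Meg3* (log2 fold change 0.33, SE 0.25) and *Rian* (0.10, SE 0.12) were higher in R192H islets without overlap, and *Mirg* was 0.27 higher with overlap (SE 0.19). *Meg3*, *Rian* and *Peg3* were the 3 of 8 members without overlap on SCD, where 7.83% of all genes did not overlap. As single libraries were left out, *Meg3* ranged from 0.16 to 0.45, *Rian* from 0.07 to 0.13 and *Mirg* from 0.08 to 0.43. The immune markers given above did not overlap on SCD either, and their part was not tested. On HFD, the differences were -0.0017 for *Meg3* (95% interval -0.53 to 0.53), 0.15 for *Rian* (-0.11 to 0.42) and 0.22 for *Mirg* (-0.18 to 0.62). *Meg3* was 0.42 without wildtype replicate 1 and -0.23 without wildtype replicate 3. As single libraries were left out on HFD, *Rian* ranged from 0.07 to 0.26 and *Mirg* from 0.05 to 0.34. No member was without overlap on HFD, against 22.9% of all genes. In βiKO islets *Meg3* was at 278.4, 259.4 and 207.8 CPM against 311.2 and 297.7 CPM in controls, lower without overlap (log2 fold change -0.29, SE 0.13, adjusted p = 0.390), while *Rian* (0.02, SE 0.11) and *Mirg* (-0.0013, SE 0.15) were close to 0. Of all genes 32.6% did not overlap there. The *Meg3* difference ranged from -0.38 to -0.18 as single libraries were left out, and was -0.19 with the stromal and endothelial covariate.

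**Figure D3:**
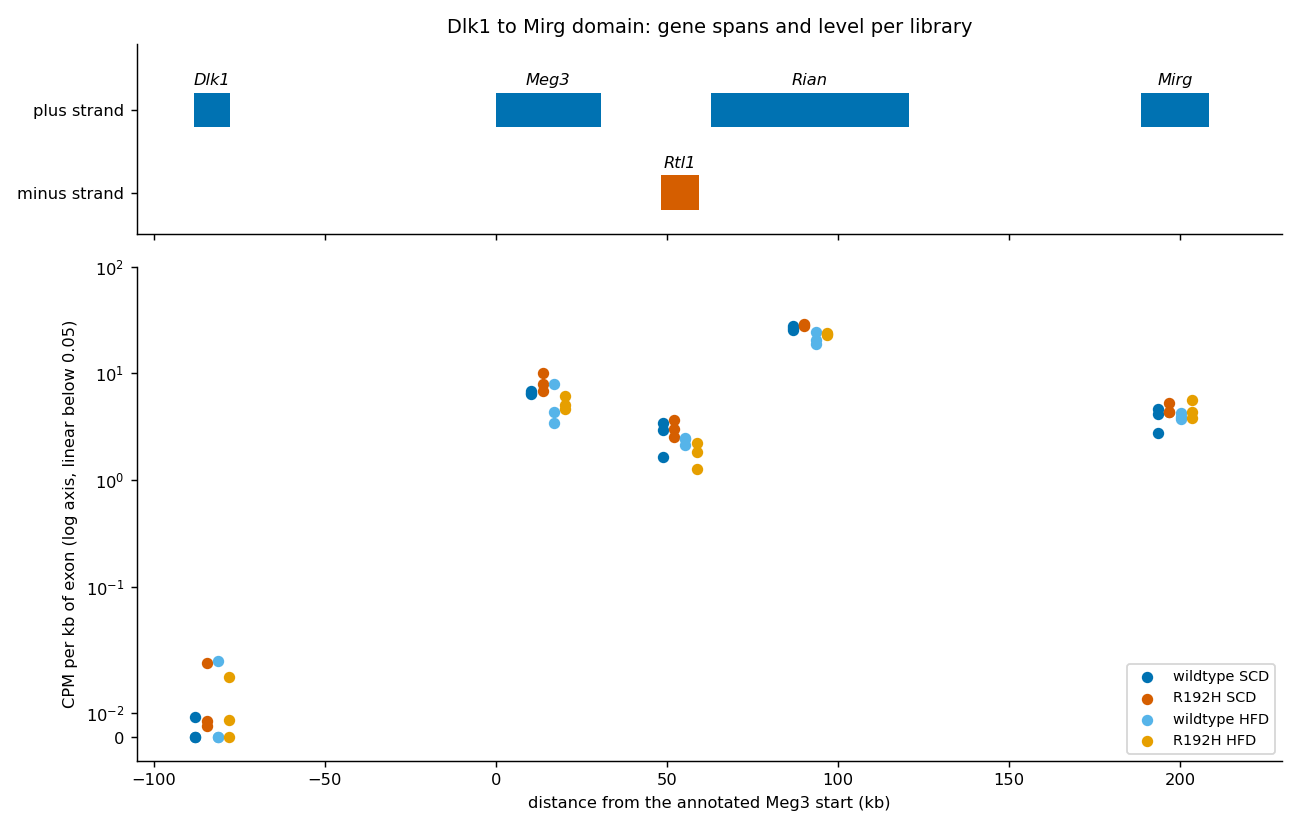
Upper panel, spans of the domain's genes by strand along the distance from the annotated start of *Meg3* (x axis, kb). Lower panel, level per library in CPM per kb of exon (y axis, log scale, linear below 0.05) at each gene's position, coloured by group of the first table. *Rian* is the highest of the domain, and *Dlk1* reaches at most 0.0322 CPM per kb in all 12 libraries.

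The ratios within each library do not depend on library size. In SCD-fed islets there were between 16.8 and 29.2 *Mirg* counts per 100 *Meg3* counts, over both genotypes. In HFD-fed R192H islets there were 28.9, 49.5 and 30.8, and in HFD-fed wildtype replicates 2 and 3 there were 38.8 and 46.1. The HFD-fed wildtype replicate 1 and R192H replicate 1 lay within the SCD range, and the other HFD libraries were above it. *Mirg* per 100 *Rian* was between 4.26 and 7.55 on SCD and between 6.50 and 9.34 on HFD, with overlap. In the second table *Mirg* per 100 *Meg3* was 18.7 and 27.3 in controls and reached 34.6 in βiKO islets, with overlap. These ratios were noticed in the data and are given as a description.

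**Figure D4:**
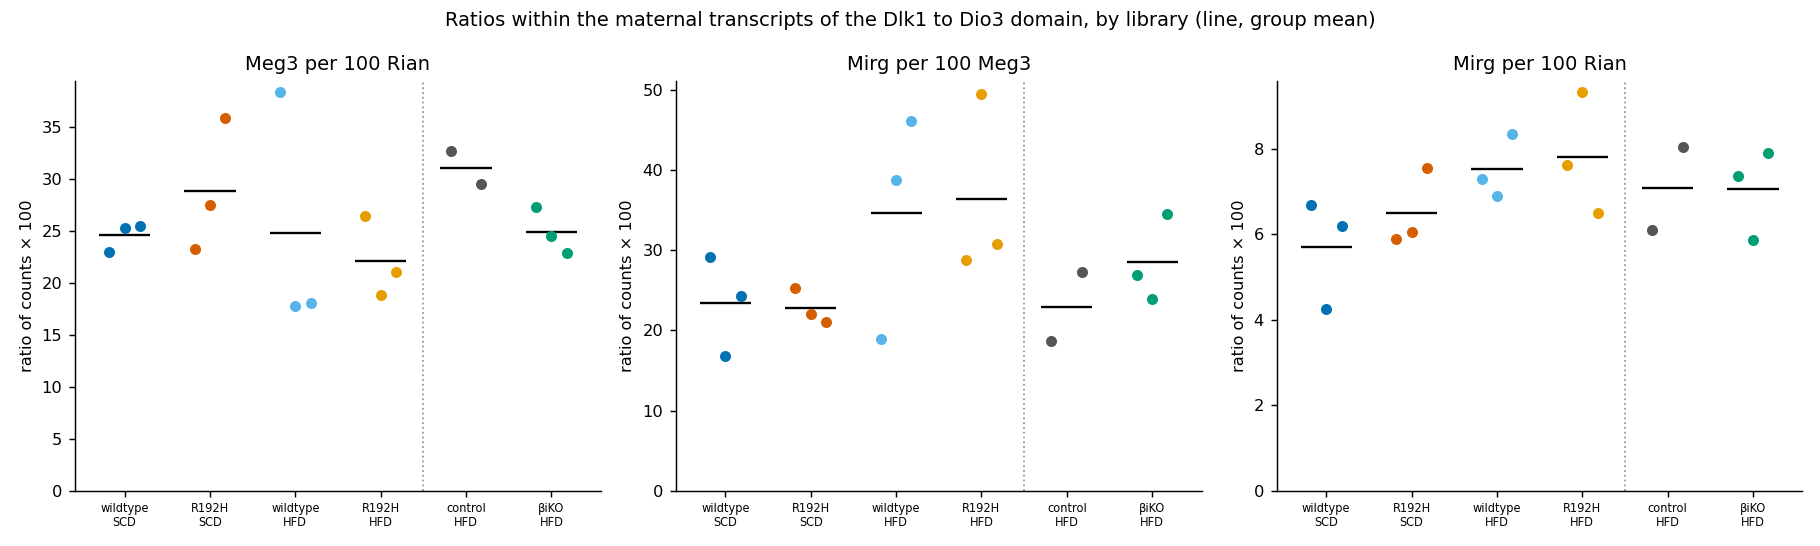
Counts of *Meg3* per 100 of *Rian*, of *Mirg* per 100 of *Meg3* and of *Mirg* per 100 of *Rian* (y axes, ratio times 100, from 0) in each library (points) with the group mean (line). For *Mirg* per 100 *Meg3*, 2 HFD-fed wildtype libraries (38.8 and 46.1) lie above all SCD libraries and the other lies among them.

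Neighbouring members were also compared library by library. For 6 pairs of neighbours, deviations of log2 CPM from the group mean were correlated over the 12 libraries of the first table, and an exact two-sided permutation test ran through all 1296 orderings within groups. The pairs with *Dlk1* or *H19*, which had 0 counts in 5 and 7 of these libraries, are not read. None of the other 4 passed, with adjusted p of at least 0.755 for Pearson's r and 0.622 for Spearman's rho. *Meg3* and *Rian* had r = -0.06 and rho = -0.35, *Meg3* and *Mirg* r = -0.05 and rho = 0.02, and *Rian* and *Mirg* r = 0.31 and rho = 0.34. Without the 2 libraries farthest from the median these r were -0.52, -0.17 and 0.36. *Igf2*, paired with *Ins2* (r = -0.15, rho = -0.26), had few counts.

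The genes whose log2 CPM was most like that of *Meg3* over the 12 libraries were *Jarid2* (r = 0.979), *Leng8* (r = 0.968) and 4933406I18Rik (r = 0.930), among 13136 genes with a mean of at least 1 CPM. For the sum of *Meg3*, *Rian* and *Mirg* they were *Sgce* (0.905), itself imprinted, the nuclear RNA *Malat1* (0.900) and *Ttc14* (0.896). These r mix differences between groups and between libraries and are given with no test.

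*Rtl1*, the paternally expressed gene between *Meg3* and *Rian* on the opposite strand, was at 16.0, 18.9 and 23.2 CPM in SCD-fed and at 11.6, 14.1 and 8.08 CPM in HFD-fed R192H islets. It was lower in all HFD libraries and was called (log2 fold change -0.79, SE 0.25, adjusted p = 0.0475). The call was lost without any 1 of the 6 libraries, with an adjusted p between 0.0504 and 0.182, and with the acinar covariate (-1.02, adjusted p = 0.274). Whether the counting used the strand is not given in the sources used here, and without it reads of *Rtl1* and of any transcript opposite to it cannot be told apart.

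*Igf2* and *Cdkn1c* belong to adjacent domains on chromosome 7 and were expressed at low levels. *Igf2* was at 0.505, 1.39 and 0.700 CPM in SCD-fed wildtype islets and at 0.254, 0.632 and 0.496 CPM in SCD-fed R192H islets. On HFD it was at 0.853, 0.205 and 0.781 CPM in wildtype and at 0.537, 0.839 and 0.308 CPM in R192H islets. All these groups overlapped, and the 95% interval of its log2 fold change reached from -2.25 to 0.43 between genotypes on SCD, with a difference of -0.15 (SE 0.63) on HFD. The library with the highest *Igf2*, SCD-fed wildtype replicate 2, also had the highest summed level of 12 stromal markers (420.7 CPM, against 114.0 to 254.9 CPM in the other 11 libraries), and the part of stromal cells was not tested. In the second table *Igf2* was at 0.706 and 1.62 CPM in controls and between 0.659 and 0.998 CPM in βiKO islets. An antisense gene, *Igf2os*, overlaps it, so strand bears on these counts too.

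*Ins2*, the insulin gene next to *Igf2*, was higher in every HFD library than in the SCD libraries of its genotype, but was called only in R192H islets. In wildtype islets *Ins2* did not pass (log2 fold change 0.92, SE 0.24, adjusted p = 0.101). It was between 14522 and 20020 CPM on SCD and between 25303 and 39122 CPM on HFD, without overlap, as for 17.9% of all genes. In R192H islets it was between 16065 and 24859 CPM in SCD-fed and between 38625 and 46040 CPM in HFD-fed islets and rose by 1.17 on the log2 scale (SE 0.24, adjusted p = 0.00560), whereas the *Igf2* difference was 0.27 (SE 0.64, adjusted p = 0.797). Whether the 2 changes differ was not tested.

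*Cdkn1c*, the cyclin-dependent kinase inhibitor p57, was at 1.45, 0.992 and 1.54 CPM in SCD-fed wildtype islets and at 0.373, 0.648 and 0.703 CPM in HFD-fed ones. In R192H islets it was at 1.14, 1.16 and 1.26 CPM on SCD and at 0.608, 0.923 and 0.494 CPM on HFD. In both genotypes each HFD library was below each SCD library, but on 14 to 63.6 counts per library neither difference passed (log2 fold change -1.21, SE 0.39, adjusted p = 0.172 in wildtype and -0.82, SE 0.39, adjusted p = 0.166 in R192H). *Cdkn1c* and *Rian* were the 2 members without overlap between the diets in wildtype islets, where 17.9% of all genes did not overlap. The interaction was 0.39 (SE 0.55), and the genotype differences were -0.16 (SE 0.38) on SCD and 0.22 (SE 0.40) on HFD. Summed immune markers, 8 of 9 tested, were 85.5 to 143.3 CPM on SCD and 62.0 to 71.7 CPM on HFD in wildtype islets, without overlap. Summed β cell markers were 45090 to 59369 CPM on SCD and 65469 to 93847 CPM on HFD, also without overlap, and the part of both lists in the *Cdkn1c* and *Rian* differences was not tested. Summed stromal markers were 134.8 to 420.7 CPM on SCD and 114.0 to 161.7 CPM on HFD in wildtype islets, and with the stromal and endothelial covariate the wildtype difference was -1.35 (adjusted p = 0.336). In the second table *Cdkn1c* was at 1.78 and 1.72 CPM in controls and at 1.21, 1.94 and 2.24 CPM in βiKO islets (log2 fold change 0.04, SE 0.33).

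*Kcnq1ot1*, the long paternal RNA of the domain that silences *Cdkn1c* on the same chromosome in mice, was lower in HFD-fed than in SCD-fed R192H islets. It was at 87.8, 83.6 and 164.1 CPM on SCD and at 61.0, 30.1 and 43.2 CPM on HFD, without overlap, and was called (log2 fold change -1.32, SE 0.42, adjusted p = 0.0459). DESeq2 did not call it (adjusted p = 0.0616), and the call was lost without any 1 of the 6 libraries, with -0.94 (adjusted p = 0.195) without SCD replicate 3. It was lost too with the stromal and endothelial covariate (-1.04, adjusted p = 0.0900) and with the acinar covariate (-2.08, adjusted p = 0.182). In wildtype islets it was at 61.0, 128.4 and 84.4 CPM and at 88.4, 36.9 and 28.3 CPM, with overlap and no call (-0.83, SE 0.42, adjusted p = 0.362).

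*Plagl1*, a zinc finger transcription factor, was low and scattered. It was at 1.14, 0.737 and 2.67 CPM in SCD-fed and at 1.00, 0.378 and 1.08 CPM in HFD-fed R192H islets, with overlap (log2 fold change -0.86, SE 0.56, adjusted p = 0.308). Without SCD replicate 3, the highest library, the difference was -0.19, and without HFD replicate 2 it was -0.53. Wildtype islets lay between 0.573 and 1.42 CPM on SCD and between 0.512 and 0.986 CPM on HFD. The second table showed the widest *Plagl1* gap, with 3.57 and 2.65 CPM in controls and 1.49, 2.15 and 0.950 CPM in βiKO islets. The βiKO libraries were all lower, yet the difference of -1.02 (SE 0.36, adjusted p = 0.315) did not pass and ranged from -1.35 to -0.77 as single libraries were left out.

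*Grb10*, an adaptor that binds the insulin and IGF1 receptors, had small differences. In R192H islets it was at 38.0, 33.6 and 44.4 CPM on SCD and at 28.7, 29.7 and 31.7 CPM on HFD, without overlap, with a log2 fold change of -0.36 (SE 0.18, adjusted p = 0.181). In wildtype islets it lay between 29.3 and 42.8 CPM on SCD and between 23.7 and 38.0 CPM on HFD. The genotype differences were 0.06 on SCD (95% interval -0.32 to 0.45) and -0.05 on HFD (-0.44 to 0.34), and the βiKO difference was 0.06 (-0.15 to 0.26), the narrowest interval among the members.

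Counted over the comparisons, members were rarely called. Between genotypes on SCD edgeR called 0 of 8 members and 0% of all genes, and 0 members at an unadjusted p below 0.05 (3.29% of all genes). On HFD it called 0 of 8 members, against 2.28% of all genes, and 1 at an unadjusted p below 0.05 (15.9% of all genes). The interaction gave 0 of 8 (0.131% of all genes) with 1 unadjusted (11.2%). HFD against SCD in wildtype islets gave 0 of 8 (0.371%) with 2 unadjusted (15.2%), and βiKO against control gave 0 of 8 (0.0893%) with 2 (12.8%). DESeq2 called 0 members in these 5 comparisons too. It was run without the filter on low counts used for edgeR, so its counts are given without a share of all genes. They are not read against the background. In the diet comparison of R192H islets 1 member was called by edgeR, 3 passed an unadjusted p below 0.05 (32.4% of all genes) and DESeq2 called 2, against 3521 of all genes. The median log2 fold change of the 8 members was -0.51 there against -0.06 for all genes, and -0.33 against 0.01 in the diet comparison of wildtype islets. It was 0.18 against -0.0038 between genotypes on SCD, 0.07 against -0.01 on HFD and -0.15 against 0.01 in βiKO islets.

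A list of 63 other imprinted genes, some of which are imprinted in few tissues, gave the members their context, and 49 of them were tested in the first table and 51 in the second. On HFD, 3 of 49 were called between genotypes (6.12%, against 2.28% of all genes). *H13*, an intramembrane protease, was higher in R192H islets (log2 fold change 0.72, SE 0.12, adjusted p = 0.00858), and so was *Pon3*, a paraoxonase (1.05, SE 0.14, adjusted p = 0.00411). *Rasgrf1*, an exchange factor for Ras, was lower at 31.0, 28.8 and 34.4 CPM against 66.9, 54.96 and 59.4 CPM in wildtype islets (-0.94, SE 0.15, adjusted p = 0.00639). *Pon3* was at 26.8, 24.4 and 22.4 CPM in R192H islets, above 11.7, 11.9 and 11.9 CPM in wildtype ones. For all 3 genes the groups did not overlap, as for 22.9% of all genes. *H13* was not called without wildtype replicate 3 or R192H replicate 2. Between these groups the summed acinar markers (16762 to 25743 CPM in wildtype and 38333 to 104758 CPM in R192H islets) and duct markers (260.2 to 323.0 and 427.2 to 530.8 CPM) did not overlap. The β cell markers did not overlap either, higher in R192H islets as a sum (65469 to 93847 and 99293 to 110484 CPM) and lower as a mean log2 CPM (9.80 to 10.05 and 9.48 to 9.70). The sums of 2 pancreatic polypeptide cell markers were 1151 to 1602 and 1657 to 3033 CPM. The part of duct, β and pancreatic polypeptide cell markers was not tested. With the acinar markers as a covariate none of the 3 was called, and no gene at all was called in this comparison.

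Between the diets in R192H islets 19 of 49 other imprinted genes were called, 7 higher and 12 lower on HFD, with a median log2 fold change of -0.16 against -0.06 for all genes. This was 38.8% of those tested, against 15.7% of all genes. Beside *Zim1* and *Kcnq1ot1*, the largest differences were *Tnfrsf23*, a decoy receptor (1.51, SE 0.46, adjusted p = 0.0397), *H13* (1.16, SE 0.12, adjusted p = 0.000118), *Gatm*, an enzyme of creatine synthesis (1.15, SE 0.20, adjusted p = 0.00257), and *Snhg14*, the long RNA host of small nucleolar RNAs opposite to *Ube3a* (-1.10, SE 0.31, adjusted p = 0.0288). Leaving out single libraries gave between 8 and 13 calls, with 12 without SCD replicate 1 or HFD replicate 1, 10 without SCD replicate 3 or HFD replicate 3, and 8 without HFD replicate 2. All genes called in these fits were 1706 to 2248, against 2996. *H13* and *Gatm* were called in all of them, *Tnfrsf23* only without SCD replicate 3, and *Snhg14* only without SCD replicate 1 or HFD replicate 3. With the acinar markers as a covariate 1 of these genes, *H13*, was called, and 103 of all genes against 2996.

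No other imprinted gene was called between genotypes on SCD, in the interaction, between the diets in wildtype islets or in βiKO islets, where the numbers at an unadjusted p below 0.05 were 0, 11 and 10 of 49 and 9 of 51, against 3.29%, 11.2%, 15.2% and 12.8% of all genes. DESeq2 called 0, 4, 3 and 2 of them, against 23, 311, 545 and 250 of all genes, among which *H13*, *Pon3*, *Gatm* and *Rasgrf1* made up the interaction, *Dcn*, *Sgce* and *Snhg14* the wildtype diet comparison and *Cd81* and *Pon2* the βiKO comparison.

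**Figure D5:**
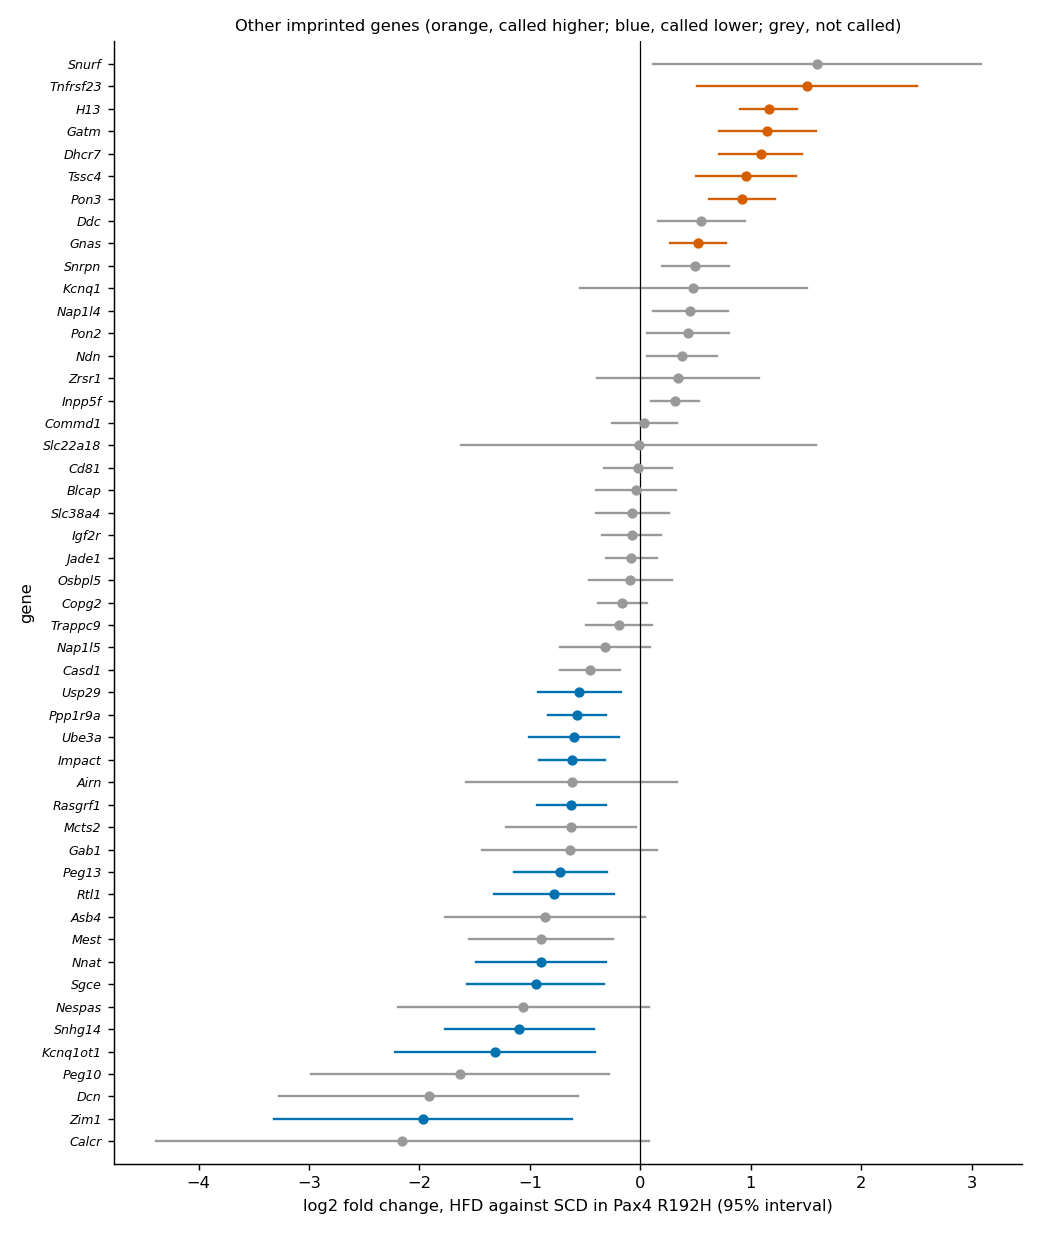
Log2 fold change between HFD and SCD in R192H islets (x axis) with its 95% interval for each of the 49 other imprinted genes tested (rows, ordered by the point). The 7 orange genes were called higher and the 12 blue genes lower, and grey genes were not called.

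Of 16 genes of IGF signalling, 13 were tested. In R192H islets 1 of them, the binding protein gene *Igfbp3*, was called as higher on HFD (log2 fold change 0.69, SE 0.11, adjusted p = 0.00151), where 9.75% of all genes were called higher, so that 1 of 13 is not above the background. By edgeR 0 were called in the other comparisons, with 0, 1, 1, 4 and 4 at an unadjusted p below 0.05 for the genotype on SCD, on HFD, the interaction, the diet in wildtype islets and βiKO, where the shares of all genes were 3.29%, 15.9%, 11.2%, 15.2% and 12.8%. Their median log2 fold change between the diets was -0.26 in R192H islets, against -0.06 for all genes, and -0.26 in wildtype islets, against 0.01.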

How the data were processed

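Per the labels and the study's methods, total RNA of isolated islets was made into stranded libraries, and the authors aligned reads to mm10 with STAR 2.7.1, estimated transcripts with RSEM 1.3.3 and used tximport to reach gene level. The deposited unit is the expected count, not scaled for depth, and values were rounded to whole numbers here. The annotation release and the strand setting are not given in the sources used here. The row identifiers were matched to GENCODE M21 on GRCm38, which held 65.8% and 66.7% of those in the tables and 90.7% and 89.5% of those tested. Start regions and miRNAs were read from RefSeq tables on GRCm38.p6.

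Each table got its own edgeR 4.0.16 quasi-likelihood model (R 4.3.3) with 1 term for every group, after filterByExpr with a minimum count of 10 and TMM normalization. It tested 19137 genes in the first table and 20167 in the second, and p-values were adjusted by Benjamini-Hochberg over all of them. Log2 CPM used a prior count of 2. Correlations within domains used exact permutation. The test was also run on simulated counts with known changes, and the outcome is not given here. The alternatives were DESeq2 1.42.0, RLE size factors, other filters, leaving out the 2 largest features, a replicate block, marker covariates, models of only the compared groups and leaving out each library.

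The members and lists were chosen with earlier results of these data known. Named were all members, the called genes of the 2 lists up to the 6 of largest difference per comparison, *Ins2*, *Kcnq1ot1*, *Rtl1*, and the 3 genes most correlated with *Meg3* and with the sum. *Usp29* and the genes named for DESeq2 were added after their values were seen.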

Additional observations from a re-analysis of the deposited data

How the results depend on the processing

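Of the values for single genes under each alternative, 992 kept their direction and side of the threshold, 34 lost the call, 7 gained it and 73 changed sign. For *Peg3* between the diets in R192H islets, 15 of 15 alternatives had the same sign (-1.15 to -0.79). The number of members called there was 1, and it was 2 without the filter on low counts, in a model of only the compared groups and by DESeq2, and 0 with the acinar covariate. Of the other imprinted genes, 19 were called there against 1 with the acinar covariate and 8 to 13 without single libraries. Between genotypes on HFD the 3 calls became 9 without the filter, 0 with the acinar covariate, 6 with the stromal and endothelial covariate, 7 by DESeq2 and 2 to 5 without single libraries (5 without wildtype replicate 2). The 0 calls of the interaction became 6 without the filter, 2 with at least 10 counts in every library, 1 with the stromal and endothelial covariate, 4 by DESeq2 and 0 to 1 without single libraries (1 without SCD-fed R192H replicate 3 or HFD-fed wildtype replicate 2). Between the diets in wildtype islets 0 became 5 without the filter, 1 with at least 10 counts in every library, 3 by DESeq2 and 0 to 1 without single libraries (1 without SCD replicate 1). Between genotypes on SCD 0 became 1 without the filter, and in βiKO islets 0 became 4 without the filter and 2 by DESeq2. The cause of these changes was not tested. The correlation of *Igf2* and *Ins2* turned from -0.15 to 0.0570 without 2 libraries.

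Values that changed sign belonged to comparisons in which the gene was not called, with an adjusted p of at least 0.347, and no direction is read from them. Without single libraries the log2 differences spanned 0 as follows. Between the diets in R192H islets they ranged for *Igf2* -0.12 to 0.62 and *Mirg* -0.17 to 0.12. Between the diets in wildtype islets they ranged for *Igf2* -0.79 to 0.031, *Mirg* -0.14 to 0.21, *Rtl1* -0.44 to 0.017, *Usp29* -0.16 to 0.045 and *Zim1* -1.15 to 0.32. Between βiKO and control they ranged for *Cdkn1c* -0.15 to 0.25, *Grb10* -0.020 to 0.14, *Igf2* -0.95 to 0.25, *Kcnq1ot1* -0.51 to 0.025, *Mirg* -0.22 to 0.26, *Rian* -0.031 to 0.083 and *Rtl1* -0.32 to 0.19. Between genotypes on HFD they ranged for *Cdkn1c* -0.062 to 0.41, *Grb10* -0.22 to 0.11, *Igf2* -0.55 to 0.15, *Kcnq1ot1* -0.49 to 0.46 and *Meg3* -0.23 to 0.42. Between genotypes on SCD they ranged for *Grb10* -0.076 to 0.18, *Kcnq1ot1* -0.092 to 0.62, *Plagl1* -0.097 to 0.91, *Rtl1* -0.057 to 0.40 and *Zim1* -0.27 to 1.15. For the interaction they ranged for *Grb10* -0.28 to 0.055, *Kcnq1ot1* -0.81 to 0.17, *Meg3* -0.56 to 0.098, *Mirg* -0.22 to 0.14, *Plagl1* -0.62 to 0.39 and *Rian* -0.023 to 0.17. With the acinar covariate the changed signs were *Cdkn1c* -0.13 between βiKO and control, *Igf2* 0.46 and *Plagl1* -0.35 between genotypes on HFD. With at least 10 counts in every library the changed signs were *Meg3* 0.0083 between genotypes on HFD. Without the filter the changed signs were *Mirg* 0.0015 between the diets in R192H islets, *Mirg* 0.0042 between βiKO and control. With the stromal and endothelial covariate the changed signs were *Mirg* -0.098, *Igf2* 0.19, *Plagl1* 0.17, *Grb10* 0.013, *Zim1* 0.85 and *Usp29* 0.20 between the diets in wildtype islets, *Mirg* 0.072, *Cdkn1c* -0.34 and *Kcnq1ot1* 0.0031 between βiKO and control, *Mirg* 0.024 in the interaction.

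With a replicate block the other imprinted genes called between the diets in R192H islets were 10 and those in βiKO islets 2, and *Peg3* kept its call (-0.90, adjusted p = 0.0109). All genes called in these comparisons were then 2347 against 2996 and 88 against 18. *Zim1* (adjusted p = 0.0841), *Usp29* (0.0758), *Rtl1* (0.0844) and *Kcnq1ot1* (0.0683), and also *Tnfrsf23* and *Snhg14*, were not called between the diets in R192H islets with the replicate block. Signs changed with it for *Mirg* 0.0022 between the diets in R192H islets, *Cdkn1c* -0.18 and *Kcnq1ot1* 0.019 between βiKO and control, *Meg3* 0.024 between genotypes on HFD. Libraries of the same number did not deviate together (r of -0.30 to 0.19), so the numbers were not used as pairs.

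Over all genes, the numbers called without the filter, with the replicate block and by DESeq2 were 1279, 147 and 920 against 437 between genotypes on HFD, 708, 0 and 311 against 25 in the interaction, 924, 22 and 545 against 71 between the diets in wildtype islets, and 697, 88 and 250 against 18 in βiKO islets. On SCD they were 261 without the filter and 23 by DESeq2 against 0. With the acinar covariate 103 genes were called against 2996 between the diets in R192H islets and 0 between genotypes on HFD. Acinar markers did not overlap between the groups of either comparison, so these fits cannot separate them from the groups. With the stromal and endothelial covariate the numbers called were 816 between genotypes on HFD and 69 in the interaction. Without single libraries they were 93 to 498 between genotypes on HFD, 0 to 101 in the interaction, 5 to 125 between the diets in wildtype islets and 2 to 28 in βiKO islets. Few counts limit *Igf2*, *Cdkn1c*, *Plagl1*, *Dlk1* and *H19*.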
